A study of Homo sapiens with 12 samples.

Results

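A set of 10 genes of pigment production was followed over the 4 conditions of an RNA sequencing experiment in 624Mel cells, an established human melanoma line. These genes were listed by name, with earlier results of these data known. They were 3 enzymes of melanin synthesis (TYR, TYRP1 and DCT), 2 proteins of the melanosome (PMEL and MLANA) and 1 receptor (GPR143). The list also held 3 transporters (OCA2, SLC45A2 and SLC24A5) and 1 small GTPase of melanosome transport (RAB27A). Each symbol matched 1 of the 40173 gene IDs, and all 10 were among the 12773 gene IDs tested. Reverse transfection delivered either a control siRNA (siCTRL) or 1 siRNA against MITF (siMITF). They were left without further treatment or received interferon gamma (IFNγ) at 5 ng/mL from 24 h after transfection, and all cells were harvested 48 h after transfection. Each condition (siCTRL, siCTRL + IFNγ, siMITF and siMITF + IFNγ) had 3 libraries. The study's methods describe its experiments in general as independent biological replicates. The labels do not say whether these libraries came from separate cultures, so p-values measure only the spread between the libraries. One siRNA in 1 cell line stood for MITF loss throughout.

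Melanin is made in melanosomes, organelles related to lysosomes. PMEL forms the fibrils on which pigment is laid down, tyrosinase (TYR) catalyses the first and rate-limiting steps of melanin synthesis, and DCT and TYRP1 act on later intermediates of the dark pigment. Transporters set the ionic conditions inside the organelle, and mature melanosomes are handed to the actin network through RAB27A. MITF, the transcription factor targeted here, is the main activator of this programme in melanocytes. It binds certain E-box sequences, which are short motifs of the form CANNTG.

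Expression is given in TPM, the share of a library's transcripts that a gene takes after correction for transcript length, so that levels of different genes can be compared. Depth was unknown. Differences are on the log2(TPM + 1) scale with their standard error (SE), from a limma fit to all 12 libraries, and genes whose p, adjusted over all tested genes, was under 0.05 were called changed. MITF itself was at 187, 229 and 217 TPM in the siCTRL libraries and at 36.0, 49.7 and 41.7 TPM in the siMITF libraries. With IFNγ it was at 158, 246 and 243 TPM in siCTRL and at 37.5, 55.1 and 51.3 TPM in siMITF cells. Every siMITF library therefore lay below every siCTRL library, with log2 changes of -2.29 (SE 0.19, limma adjusted p = 1.2e-06) without and -2.14 (SE 0.19, limma adjusted p = 2.4e-06) with IFNγ.

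Of the 5 melanocyte lineage markers (SOX10, MITF, PMEL, MLANA and S100B), all 5 had at least 2 TPM in every condition, with a sum of 5450 to 6412 TPM in siCTRL and 1429 to 1649 TPM in siMITF libraries. Of these 5 genes, 3 are MITF itself or pigment genes described here, and PMEL carried most of the sum. Of the remaining genes, S100B went the other way, from 81.8 to 167 TPM (1.02, limma adjusted p = 2.2e-07). SOX10 was also lower, but by little, from 263 to 226 TPM (-0.22, limma adjusted p = 0.0482). Markers of other cell types were low, apart from KRT10. The 5 fibroblast markers summed to 6.20 to 7.83 TPM in siCTRL and 10.2 to 12.5 TPM in siMITF libraries, the 5 immune markers to 2.99 to 3.19 and 4.62 to 5.55 TPM with CD3E listed at 0 in all libraries, and the 4 endothelial markers to at most 0.808 TPM in any library. The 5 keratinocyte markers summed to 48.5 to 60.8 TPM in siCTRL and 48.1 to 55.2 TPM in siMITF libraries, nearly all of it KRT10 (54.2 TPM on average in siCTRL cells), and none of the other 4 reached 2 TPM. Mitochondrial genes took 7.42% to 16.9% of a library. Over the 40 sets of a pigment gene in a condition, replicate 2 was the highest library in 29 and replicate 1 the lowest in 28. The part of these library differences in the results was tested only through the alternatives given in the closing section. In such bulk samples fewer expressing cells and less RNA per cell cannot be told apart.

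Promoter sequences from RefSeq (GRCh38.p14) were at hand for 8 of the 10 genes, with 13 start sites among them, and not for PMEL and SLC45A2. They are shown because the factor that was knocked down binds certain E-boxes. Each window of 300 bases, from 250 before to 50 after a start site, was searched on both strands for the E-box CATGTG, for its palindromic relative CACGTG and for the longer TCATGTG, which contains the E-box named first. CATGTG was present for 6 of the 8 genes (TYR, TYRP1, DCT, OCA2, SLC24A5 and GPR143), in 1 window each, and TCATGTG in 5 of these windows, all but that of OCA2. Among all 35116 RefSeq promoters, CATGTG was held by 11.1%, CACGTG by 7.26% and the longer motif by 2.92%. CACGTG was in none of the 13 windows, and MLANA and the 5 windows of RAB27A held none of the 3 motifs. The 250 bases before the start site are printed below for the enzymes, for GPR143 and, for contrast, for MLANA, 5′ to 3′ along the gene, with matches on either strand in capitals. They are TYR chr11:89177625-89177874 (plus strand), TYRP1 chr9:12693135-12693384 (plus), DCT chr13:94479683-94479932 (minus), GPR143 chrX:9765848-9766097 (minus) and MLANA chr9:5890639-5890888 (plus).
TYR: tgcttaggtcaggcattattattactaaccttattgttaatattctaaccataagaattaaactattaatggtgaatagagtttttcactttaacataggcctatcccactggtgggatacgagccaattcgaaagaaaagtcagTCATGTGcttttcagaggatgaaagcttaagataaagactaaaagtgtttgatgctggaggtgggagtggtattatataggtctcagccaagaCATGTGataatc
TYRP1: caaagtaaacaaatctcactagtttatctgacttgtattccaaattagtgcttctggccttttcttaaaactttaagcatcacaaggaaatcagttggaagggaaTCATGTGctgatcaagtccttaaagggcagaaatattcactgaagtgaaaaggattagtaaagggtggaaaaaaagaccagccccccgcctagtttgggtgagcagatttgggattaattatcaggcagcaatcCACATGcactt
DCT: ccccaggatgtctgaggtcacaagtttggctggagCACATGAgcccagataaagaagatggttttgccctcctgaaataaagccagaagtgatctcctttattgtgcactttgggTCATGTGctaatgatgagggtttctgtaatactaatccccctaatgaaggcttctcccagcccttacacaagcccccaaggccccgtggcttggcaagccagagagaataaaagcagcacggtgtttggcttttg
GPR143: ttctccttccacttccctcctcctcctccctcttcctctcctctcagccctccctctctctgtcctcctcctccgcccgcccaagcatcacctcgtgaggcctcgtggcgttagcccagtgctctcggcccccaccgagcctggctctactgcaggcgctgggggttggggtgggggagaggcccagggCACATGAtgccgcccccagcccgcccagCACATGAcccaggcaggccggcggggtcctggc
MLANA: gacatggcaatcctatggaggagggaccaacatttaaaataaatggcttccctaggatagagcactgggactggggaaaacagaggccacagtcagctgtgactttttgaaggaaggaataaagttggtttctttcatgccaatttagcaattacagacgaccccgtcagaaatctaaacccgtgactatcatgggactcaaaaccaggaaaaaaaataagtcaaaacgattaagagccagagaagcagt

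In TYR, TYRP1 and DCT a TCATGTG match began 105, 145 and 135 bases before the start site, and each had a further match, beginning 12, 11 and 215 bases before it. GPR143 had matches beginning 61 and 33 bases before its start site, SLC24A5 1 at 15 bases and OCA2 1 at 153 bases. A match is a description of letters, and absence from this window says nothing about binding elsewhere. Other sequences of the form CANNTG, such as CAGCTG in the MLANA stretch, were not searched for and are not marked.

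Knockdown of MITF without IFNγ lowered 9 of the 10 pigment genes and left SLC45A2 without a call. Of the 9, 8 fell at least 2-fold (all but TYR). Among all tested genes, 13.8% were called lower, 2.91% were called lower with at least a 2-fold change, and 21.0% were called higher. The median log2 change was -1.54 over the 10 genes and 0.06 over all tested genes. All siMITF libraries lay below all siCTRL libraries for the same 9 genes, while the libraries of the compared conditions did not overlap for 55.0% of all tested genes. With IFNγ in both conditions all 10 genes were lower, 8 of them at least 2-fold (background 14.7% lower, 2.58% lower with at least a 2-fold change and 18.4% higher), the median was -1.56 against 0.03 over all genes, and no gene's libraries overlapped (38.3% of all tested genes).

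RNA of the 3 enzymes fell by different amounts. TYR (ENSG00000077498, GRCh38 chromosome 11, 89177875 to 89295759, plus strand) was at 347, 406 and 349.9 TPM in siCTRL and at 223, 233 and 215 TPM in siMITF libraries. Its mean went from 367 ± 33.1 to 223 ± 8.96 TPM (SD, n = 3 libraries each), so that 60.8% was left. This was the smallest of the 9 falls, at -0.71 (SE 0.081, limma adjusted p = 2.3e-05).

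TYRP1 (ENSG00000107165, chromosome 9, 12685439 to 12710285, plus strand), which acts on a late intermediate of eumelanin and stabilises tyrosinase, was at 2000.4, 2377 and 2069 TPM in siCTRL and at 803, 871 and 828 TPM in siMITF libraries. The change was -1.36 (SE 0.11, limma adjusted p = 1.0e-06) and 38.8% was left. DCT (ENSG00000080166, chromosome 13, 94436811 to 94479682, minus strand), the dopachrome tautomerase, was at 215, 273 and 243 TPM in siCTRL and at 19.6, 25.2 and 22.5 TPM in siMITF libraries. Only 9.19% of its mean was left, a change of -3.39 (SE 0.16, limma adjusted p = 9.2e-09). All 3 genes had a TCATGTG match in the promoter stretches printed above.

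RNA of the genes of melanosome structure was strongly lowered. PMEL (ENSG00000185664, chromosome 12, 55954105 to 55973317, minus strand) was the most abundant of the 10, at 4421, 5347 and 4712 TPM in siCTRL and at 987, 1174 and 1074 TPM in siMITF libraries, a change of -2.16 (SE 0.15, limma adjusted p = 2.3e-07). It shares 2.42% of its exonic bases with CDK2, a cell cycle kinase on the opposite strand, whose mean went from 520.5 to 193 TPM, and the kit does not mark strand. MLANA (ENSG00000120215, chromosome 9, 5890889 to 5910606, plus strand), a melanosomal membrane protein and melanoma antigen that binds PMEL, was at 501, 482 and 442 TPM in siCTRL and at 16.5, 19.1 and 16.0 TPM in siMITF libraries. With 3.61% of its mean left, MLANA had the lowest fitted change of the 12773 tested gene IDs, at -4.71 (SE 0.089, limma adjusted p = 1.2e-11). This place depended on the pseudocount of 1, since with 0.1 TRPM1, a gene with less than 1 TPM in siMITF cells, was lower, at -5.79.

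GPR143 (ENSG00000101850, chromosome X, 9725346 to 9786297, minus strand), the melanosomal receptor whose loss causes ocular albinism, varied little between siCTRL libraries (153, 154 and 148 TPM). In siMITF libraries it was at 53.8, 57.9 and 57.3 TPM, a change of -1.42 (SE 0.076, limma adjusted p = 3.1e-08). RAB27A (ENSG00000069974, chromosome 15, 55202966 to 55319113, minus strand), which links mature melanosomes to myosin Va through melanophilin, was at 114, 119 and 109 TPM in siCTRL and at 29.0, 29.7 and 26.8 TPM in siMITF libraries. Its change was -1.96 (SE 0.073, limma adjusted p = 1.8e-09) and 25.1% was left.

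The transporters did not behave alike. OCA2 (ENSG00000104044, chromosome 15, 27754875 to 28099315, minus strand), an anion channel that raises melanosomal pH, was the least abundant gene, at 14.7, 14.5 and 15.0 TPM in siCTRL and at 3.56, 4.12 and 4.19 TPM in siMITF libraries, a change of -1.67 (SE 0.10, limma adjusted p = 9.7e-08). SLC24A5 (ENSG00000188467, chromosome 15, 48120990 to 48142672, plus strand), a potassium-dependent sodium/calcium exchanger, was at 190.1, 216 and 203 TPM in siCTRL and at 78.2, 79.6 and 74.0 TPM in siMITF libraries, a change of -1.38 (SE 0.10, limma adjusted p = 4.2e-07). Of its exonic bases 33.1% overlap MYEF2 on the opposite strand, which was itself at a mean of 53.4 TPM in siCTRL and 26.1 TPM in siMITF cells, so that reads of these genes could be shared and the value of SLC24A5 is uncertain.

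SLC45A2 (ENSG00000164175, chromosome 5, 33944623 to 33984693, minus strand), a proton-coupled sugar transporter needed for normal melanosomal pH, was at 444, 448 and 456 TPM in siCTRL and at 416, 457 and 433 TPM in siMITF libraries. The libraries overlapped, and the change was -0.05 (SE 0.14, limma adjusted p = 0.826). It ranked 4533 from the lowest change among the tested gene IDs, while the other 9 ranked 661 or lower.

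**Figure D1:**
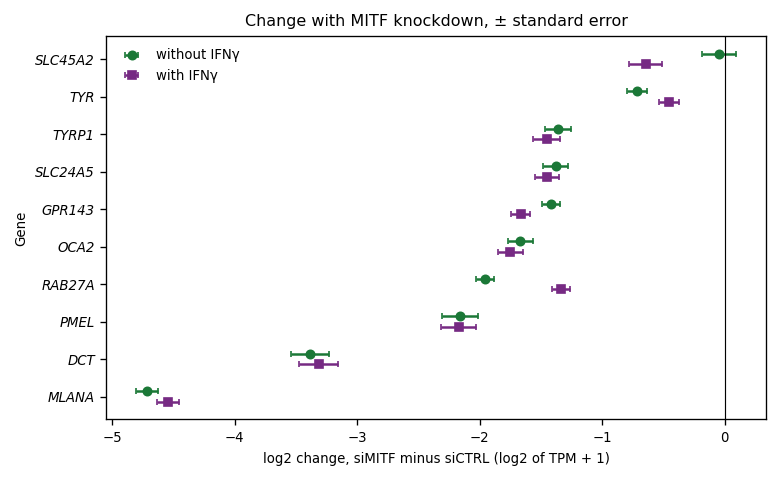
Difference between siMITF and siCTRL cells for each gene, in log2 of TPM + 1 with bars of 1 standard error from limma, without IFNγ (circles) and with IFNγ (squares). The point of SLC45A2 without IFNγ (-0.05) lies at 0 within its bar, the nearest of the others is TYR with IFNγ (-0.46), and RAB27A fell by less with IFNγ (-1.34) than without it (-1.96).

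Whether genes fell by different amounts was tested on the difference itself. For each of the 45 pairs the log2 ratio of both genes was compared between siRNAs with an exact two-sided permutation test, in which siRNA labels were permuted within treated and within untreated libraries (400 relabellings, smallest possible p 0.005), adjusted over the 45 pairs. In 37 pairs the effect differed at an adjusted p under 0.05. Averaged over both IFNγ states, the effect on TYR was 2.77 (SE 0.10, exact permutation p = 0.005, adjusted p = 0.00643) less negative than on DCT and 0.82 (SE 0.045, exact permutation p = 0.005, adjusted p = 0.00643) less negative than on TYRP1. MLANA fell by more than each of the other 9 genes, and by 2.46 more than PMEL (SE 0.13, exact permutation p = 0.005, adjusted p = 0.00643).

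The pairs without a detectable difference were mostly those of genes in the middle of the range. TYRP1 and SLC24A5 differed by 0.01 (SE 0.027, exact permutation adjusted p = 0.755) and TYRP1 and GPR143 by 0.13 (exact permutation adjusted p = 0.0947), with GPR143 the lower. GPR143 and SLC24A5, and RAB27A with TYRP1, GPR143, OCA2 and SLC24A5, were not separated either (exact permutation adjusted p = 0.0981 to 0.644). The averages of RAB27A join unlike effects, -1.96 without and -1.34 with IFNγ. Without IFNγ its fall was larger than those of TYRP1 (-1.36), GPR143 (-1.42), SLC24A5 (-1.38) and OCA2 (-1.67). These differences were not tested in that state alone. As OCA2 had low TPM, the pseudocount of 1 drew its log2 changes towards 0, here and in its pairs. By mean TPM without IFNγ, 26.8% of OCA2 and 25.1% of RAB27A was left. TYR and SLC45A2 differed by 0.24 (SE 0.10, exact permutation adjusted p = 0.193), with TYR the lower. That average likewise joins a SLC45A2 effect near 0 without IFNγ to one of -0.65 with it.

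IFNγ alone changed little in siCTRL cells. One of the 10 genes was called, MLANA, which rose from 501, 482 and 442 TPM to 625, 597 and 599 TPM, all 3 treated libraries above all untreated ones (0.35, SE 0.089, limma adjusted p = 0.0211). Over all tested genes 6.80% were called higher and 6.14% lower, so that 1 call in 10 is near the background. This call was lost (adjusted p up to 0.0944) when siCTRL replicate 2, siCTRL replicate 3, siCTRL + IFNγ replicate 1 or siCTRL + IFNγ replicate 3 was left out. TYR was at 374, 451 and 412 TPM with IFNγ and overlapped the untreated libraries (0.16, limma adjusted p = 0.223). DCT was at 156, 217 and 217 TPM, also overlapping (-0.32, limma adjusted p = 0.232).

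With the replicate number as a block, both passed the threshold (TYR limma adjusted p = 0.0453, DCT limma adjusted p = 0.0122). RAB27A was at 118, 134 and 131 TPM (0.16, limma adjusted p = 0.186) and GPR143 at 157, 175 and 170.2 TPM (0.14, limma adjusted p = 0.277). Neither was called. PMEL (3843, 5432 and 5001 TPM), TYRP1 (1829, 2478 and 2291 TPM) and SLC24A5 (174, 224 and 216 TPM) had log2 differences of -0.03, 0.03 and 0.00, and their treated libraries spread on both sides of the untreated ones. OCA2 (12.1, 14.4 and 13.9 TPM) and SLC45A2 (333, 444 and 432 TPM) were at -0.12 and -0.17 and were not called either (limma adjusted p = 0.487 and 0.482). For MLANA, GPR143, OCA2 and SLC45A2, 4 of the 10, treated and untreated libraries did not overlap, against 29.7% of all tested genes.

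In siMITF cells IFNγ changed 4 of the 10 genes, 3 up and 1 down, against 7.99% called higher and 12.2% called lower over all tested genes. The libraries of the 4 genes, and of no other of the 10, did not overlap between treated and untreated cells, a share near the 40.5% of all tested genes. RAB27A rose most, from 29.0, 29.7 and 26.8 TPM to 49.6, 48.0 and 51.6 TPM, which was 1.74 times the untreated mean (0.78, SE 0.073, limma adjusted p = 6.8e-06). MLANA rose from 16.5, 19.1 and 16.0 TPM to 24.2, 23.1 and 28.2 TPM (0.53, SE 0.089, limma adjusted p = 0.00121), a level that was still 4.15% of that in siCTRL + IFNγ cells. TYR rose from 223, 233 and 215 TPM to 296, 309 and 292 TPM (0.42, SE 0.081, limma adjusted p = 0.00295).

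SLC45A2 moved the other way. It was at 199.8, 286 and 289.7 TPM in siMITF + IFNγ libraries against 416, 457 and 433 TPM in siMITF libraries, a change of -0.77 (SE 0.14, limma adjusted p = 0.00167). Replicate 1 was the lowest of the treated libraries. With any 1 library left out the difference was -0.86 to -0.59 and was called each time. The gene that MITF knockdown alone did not lower was therefore lower when IFNγ was added.

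The other 6 genes were not called in siMITF cells. DCT was at 15.3, 19.1 and 22.3 TPM (-0.25, limma adjusted p = 0.304, and 0.0311 with the replicate block, where it was called). OCA2 was at 2.87, 3.61 and 3.42 TPM (-0.21, limma adjusted p = 0.176) and GPR143 at 48.2, 50.9 and 57.4 TPM (-0.11, limma adjusted p = 0.331). TYRP1 (723, 866 and 804 TPM), SLC24A5 (67.2, 80.7 and 74.2 TPM) and PMEL (842, 1159.6 and 1164 TPM) lay within 0.07 of no change.

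**Figure D2:**
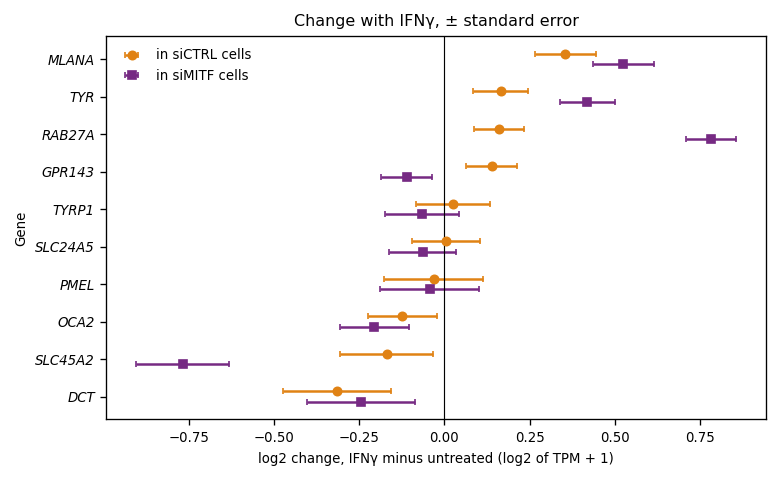
Difference between IFNγ-treated and untreated cells for each gene, in log2 of TPM + 1 with bars of 1 standard error from limma, in siCTRL cells (circles) and siMITF cells (squares). RAB27A (0.16 and 0.78) and SLC45A2 (-0.17 and -0.77) show the widest gaps between the siRNAs, of which that of RAB27A passed the interaction test.

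Whether IFNγ acted differently after MITF knockdown was read from the interaction. Of the 10 genes 1 was called, RAB27A, with an interaction of 0.62 (SE 0.10, limma adjusted p = 0.0110). Over all tested genes 0.705% were called with a positive and 0.243% with a negative interaction. In siCTRL cells RAB27A went from 114 to 127 TPM on average, and in siMITF cells from 28.5 to 49.7 TPM. For SLC45A2 the interaction was -0.60 (SE 0.19), with an unadjusted p of 0.00900 and a limma adjusted p of 0.309, and with the replicate block the adjusted p was 0.0324, so that its call depended on the fit. TYR (0.26, limma adjusted p = 0.637), GPR143 (-0.25, limma adjusted p = 0.598) and MLANA (0.17, limma adjusted p = 0.900) did not pass. The remaining 5 genes had interactions between -0.09 and 0.07.

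The combination of both treatments was compared with untreated siCTRL cells, the libraries that also served as controls above. All 10 genes were lower, 8 of them at least 2-fold (background 23.4% lower and 3.16% lower with at least a 2-fold change), with a median of -1.49 against -0.04 over all genes. MLANA was at -4.19 and DCT at -3.63. SLC45A2, at a mean of 259 ± 51.0 TPM against 449.5 ± 6.38 TPM (SD, n = 3 libraries each), was at -0.82 (SE 0.14, limma adjusted p = 3.9e-04). TYR had the smallest difference, at -0.29 (SE 0.081, limma adjusted p = 0.0109), and without siCTRL replicate 2 it was not called (-0.22, limma adjusted p = 0.0515).

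Together the 10 genes made up 8995 ± 749 TPM in siCTRL cells (SD, n = 3 libraries), or 0.920% of the library, and 9090 ± 1316 TPM in siCTRL + IFNγ cells. In siMITF cells the sum was 2776 ± 162 TPM, or 0.283% of the library, and in siMITF + IFNγ cells 2634 ± 318 TPM. PMEL held 53.6% of the sum in siCTRL and 38.8% in siMITF cells. The order of levels was rearranged by the knockdown. In siCTRL cells it ran PMEL, TYRP1, MLANA, SLC45A2, TYR, DCT, SLC24A5, GPR143, RAB27A, OCA2, where MLANA and SLC45A2, and DCT and SLC24A5, overlapped between libraries.

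In siMITF cells the order was PMEL, TYRP1, SLC45A2, TYR, SLC24A5, GPR143, RAB27A, DCT, MLANA, OCA2, with no overlap between neighbours. MLANA thus went from place 3 to place 9 and DCT from place 6 to place 8, whereas SLC45A2 went from place 4 to place 3. With IFNγ in siCTRL cells MLANA kept place 3, TYR and SLC45A2 overlapped, and so did SLC24A5 with DCT and DCT with GPR143. In siMITF + IFNγ cells TYR stood above SLC45A2 without overlap, PMEL overlapped TYRP1 and GPR143 overlapped RAB27A.

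Other genes of the pathway moved less uniformly. Of 27 genes of melanosome biogenesis and cargo sorting (BLOC and HPS complexes, AP-3 subunits and their partners), 9 fell and 0 rose with siMITF without IFNγ, with a list median of -0.15, against the 13.8% lower and 21.0% higher given above. The largest changes were those of LYST, a regulator of lysosome-related organelle size (23.4 ± 2.33 TPM in siCTRL cells, -1.87, limma adjusted p = 1.9e-08), GPNMB, a relative of PMEL (641 ± 39.0 TPM, -1.78, limma adjusted p = 5.9e-09), and RAB32, which sorts melanogenic enzymes (189.8 ± 10.6 TPM, -1.08, limma adjusted p = 4.3e-06). With IFNγ in both conditions 10 of the 27 fell and 0 rose, against 14.7% lower and 18.4% higher over all tested genes.

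Of 9 genes of melanosome movement 8 were tested and 4 fell, with 0 higher and a median of -0.41. Over all tested genes 13.8% were lower and 21.0% higher. MLPH, melanophilin, the partner of RAB27A, fell from 54.7 to 9.59 TPM (-2.41, limma adjusted p = 5.9e-09), RAB17 by 1.07 and MREG, melanoregulin, by 0.49 on the log2 scale. MLPH and RAB27A were both lowered by siMITF, but the interaction called for RAB27A was not called for MLPH (-0.34, limma adjusted p = 0.626). No gene of the 4 pathway lists had a called interaction, although TFAP2A of the signalling list lay just over the threshold (-0.53, limma adjusted p = 0.0516). Of 9 channels and pumps 3 fell and 2 rose, against the same 13.8% and 21.0%, so that the rises were near the background. TRPM1, a cation channel whose expression marks melanocytes, went from 35.5 to 0.544 TPM (-4.56, limma adjusted p = 1.8e-10), CLCN7, a lysosomal chloride/proton exchanger, fell by 0.91, and TMEM163, a zinc transporter, rose by 1.25 on the log2 scale from a low mean of 1.52 TPM.

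Of 12 genes of pigment signalling and transcription 8 fell, among them MITF, the target of the siRNA, and 3 rose. Against 13.8% lower and 21.0% higher over all tested genes, the rises were near the background. IRF4, a factor that acts with MITF on TYR in melanocytes, fell from 13.4 to 1.34 TPM (-2.63, limma adjusted p = 5.9e-09), and in siCTRL cells IFNγ raised it to 31.5 TPM (1.18, limma adjusted p = 1.2e-05). KIT, the receptor for stem cell factor, fell by 1.56 and LEF1, a Wnt pathway factor, rose by 1.49 on the log2 scale. In siCTRL cells, where 6.80% of all tested genes were called higher and 6.14% lower with IFNγ, the lists had 2 higher and 1 lower of 27 for biogenesis, 1 and 0 of 8 for movement, 1 and 1 of 9 for channels and 2 and 0 of 12 for signalling. RAB17 was the movement gene that rose (0.55, limma adjusted p = 0.00697), and TRPM1 the channel that rose (0.67, limma adjusted p = 0.00322). In siMITF cells the counts were 1 and 0, 1 and 0, 0 and 0, and 3 and 1 in the same order, against 7.99% higher and 12.2% lower over all tested genes.

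The genes most like the group were found by Pearson's r of log2(TPM + 1) over the 12 libraries with the mean of the 10 genes, each scaled to mean 0 and SD 1. They were ACTR1A (r = 0.998), EN2 (r = 0.997), MTURN, MBP and SLC25A4 (r = 0.996 each). As all libraries share the siRNA contrast, these values are a description. MBP, myelin basic protein, went from 69.4 to 12.6 TPM between siCTRL and siMITF cells. Among the 10 genes PMEL lay closest to the group mean (r = 0.999), and TYR (0.862) and SLC45A2 (0.542) farthest.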

How the data were processed

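RNA of 624Mel cells was sequenced from unstranded TruSeq libraries, 3 for each of 4 conditions. Per the study's methods and the submitters' processing notes, the authors used Trimmomatic 0.39 for trimming and kallisto, with Ensembl's GRCh38 transcripts as index, for quantification, and added transcripts up to genes. TPM of each gene in each library were deposited by the authors. The authors tested counts with DESeq2 1.26.0. Counts were not used here. TPM carry no depth, so no counting interval is given, and each gene is relative to the rest of its library. Column totals were 975336 to 982632 TPM, and correlations between libraries across genes (log2 scale) 0.978 to 0.998. Symbols and positions came from GENCODE v44 (GRCh38), with symbols for 35520 of 40173 gene IDs.

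The analysis used log2(TPM + 1). Gene IDs that averaged 2 TPM or more in any condition (12773) entered a limma fit (limma 3.58.1, R 4.3.3) with a coefficient for each condition, an intensity trend, two-sided tests and Benjamini-Hochberg adjustment over all tested genes. A single gene tested on 3 against 3 libraries by permutation could not go below p = 0.1, so the fit over all genes was used, with an exact stratified permutation test for differences between genes. Named genes were the 10 pigment genes, MITF, up to 3 genes with the largest change per pathway list, and the 5 genes most like the group. CDK2, MYEF2, PIGB and PIGBOS1 were named for sharing exonic bases, and KRT10, CD3E, SOX10 and S100B as markers. TFAP2A was named for an interaction near the threshold. The genes and lists were chosen with earlier results of these data known. The fit was tested on simulated data without deviations shared by same-numbered libraries, so that test does not cover the pairing described below. Tables and figures were made with Python 3.11.15, pandas 2.3.3, numpy 2.4.6, scipy 1.17.1 and matplotlib 3.10.9.

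Pairing of the replicate numbers, which the labels carry in all conditions, was checked on deviations from condition means. Across genes, these deviations correlated at 0.10 to 0.63 (median 0.28) in the 18 pairs of same-numbered libraries, and the median was -0.20 where the numbers differed. Deviations within a condition cancel out, so the negative median follows largely from the positive correlations and is no separate evidence of pairing. Because of the positive correlations, same-numbered libraries were treated as pairs in an alternative fit with the number as a block. The other alternatives were pseudocounts of 0.1 and 0.5, no filter, quantile normalization, an average over the 12 libraries of 5 TPM or more, centring on the library median, no trend, only the conditions compared, and each library left out in turn. Leaving out the 13 mitochondrial genes and rescaling was added after seeing the data.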

Additional observations from a re-analysis of the deposited data

Results flagged for a closer look

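The effect of IFNγ on RAB27A differed between siMITF and siCTRL cells. The interaction was 0.62 (SE 0.10, limma adjusted p = 0.0110), with a difference of 0.78 in siMITF cells, where all 3 treated libraries lay above all 3 untreated ones, and of 0.16 in siCTRL cells, where the libraries overlapped. RAB27A shares 1.61% of its exonic bases with PIGBOS1 on the same strand and 1.36% with PIGB on the opposite strand.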

How the results depend on the processing

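Under 10 alternatives and with each of the 12 libraries left out, the numbers of pigment genes changed by siMITF without IFNγ (9), by siMITF with IFNγ (10) and, at least 2-fold, in both (8) were the same or within 1.5 times. The number of pairs with different siMITF effects was 37 or 38, recomputed only with both other pseudocounts, quantile normalization, centring and each library left out. With IFNγ in siCTRL cells the count of 1 became 3 under quantile normalization (TYR and RAB27A also), 2 with centring on the median (TYR also), 3 with the replicate block (TYR and DCT also) and 3 without mitochondrial genes (TYR and RAB27A also), and 0 to 1 with a library left out. For the interaction the count of 1 became 2 under quantile normalization (TYR also, adjusted p = 0.0402), 2 with centring (SLC45A2 also, adjusted p = 0.0455) and 2 with the replicate block. The cause was not tested. The interaction of RAB27A was called in all 21 alternatives, at 0.57 to 0.66, with adjusted p from 0.00190 to 0.0482. The block changed no call of a pigment gene other than the 4 given beside the results, and with it 5 genes in place of 4 were called for IFNγ in siMITF cells.

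Over all tested genes, the 4229 genes changed by siMITF with IFNγ became 2736 with only the compared conditions in the fit. The 1652 genes changed by IFNγ in siCTRL cells became 2825 under quantile normalization, 2814 with centring, 1078 with only the compared conditions and 3281 with the block, and 1054 to 2049 with a library left out. Of the called genes 52.5% were higher, against 41.7% under quantile normalization and 37.6% with the block. The 2574 genes changed by IFNγ in siMITF cells became 3996 under quantile normalization and 4556 with the block, and 1647 to 3133 with a library left out. The 121 interactions became 68 with a pseudocount of 0.1, 65 with a mean of at least 5 TPM, 294 under quantile normalization, 263 with centring, 276 with the block and 217 without mitochondrial genes, and 70 to 125 with a library left out. Of them 74.4% were positive, against 63.4% with the block.

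Directions turned only where differences were near 0. For IFNγ in siMITF cells PMEL became 0.01 (0.00506) without mitochondrial genes and SLC24A5 0.01 (0.0131) under quantile normalization, and the interaction of PMEL became 0.00132 under quantile normalization, 0.00886 with centring and 0.0108 without mitochondrial genes. With a library left out, the IFNγ difference in siCTRL cells ran from -0.066 to 0.15 for TYRP1, -0.13 to 0.12 for PMEL, -0.065 to 0.12 for SLC24A5 and -0.10 to 0.22 for MITF. In siMITF cells it ran from -0.13 to 0.00 (0.00187) for TYRP1, -0.12 to 0.11 for PMEL and -0.13 to 0.00 (0.00234) for SLC24A5. The interaction ran from -0.086 to 0.21 for DCT, -0.16 to 0.14 for PMEL and -0.18 to 0.00 (5.5e-04) for SLC24A5.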
